A study of Mus musculus with 6 samples.

Results

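A set of 10 genes that mark or drive the epithelial-mesenchymal transition (EMT) were followed in whole mouse prostates, namely the transcription factor genes Twist1, Twist2, Snai1, Snai2, Zeb1 and Zeb2, the filament gene Vim and the adhesion genes Cdh1, Cdh2 and Epcam. They were chosen by name as regulators and markers of this transition, with earlier results of these data known. All 10 were found among the 19938 genes that could be followed on the array. Each was read by 1 probe set with that gene as its only symbol. The groups were prostates of 4-week-old AR3 transgenic mice (3 mice) and of their wild-type littermates (3 mice), with 1 array per mouse. No source used here gives the promoter or the cell type that drives the transgene, and its own expression was not analysed here. The comparison asks how the transgene goes together with gene expression in the prostate at this age.

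Epithelial cells are held together by E-cadherin, the product of Cdh1, and carry the adhesion protein encoded by Epcam. In the transition, such cells lose these contacts, gain motility and take up mesenchymal products such as the intermediate filament vimentin (Vim) and N-cadherin (Cdh2). The Snai and Zeb zinc finger proteins and the Twist basic helix-loop-helix proteins bind short DNA motifs called E-boxes, and Snai and Zeb proteins are known to repress Cdh1 through them. In the prostate the epithelium forms ducts within a stroma of fibroblasts and smooth muscle, and stromal cells, vessels and leukocytes also express Vim and the Zeb genes. In whole tissue, fewer cells of a type and less RNA per cell cannot be told apart.

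The following sequences show E-boxes, which the Snai, Zeb and Twist proteins bind, in promoters of members. RefSeq promoter windows (GRCm38.p6, 250 bases before to 50 bases after the annotated start) matched 6 of the 10 members, Twist1, Twist2, Snai1, Zeb2, Vim and Epcam. The E-box form CACCTG, or CAGGTG on the other strand, stood in the windows of 2 of these 6, Epcam and Snai1, and in 20.2% of all 32851 windows of the table. The first is a count of genes and the second a share of windows, and Zeb2 has several windows, so they are not on a like basis. Both spellings are forms of the general E-box CANNTG, which 72.3% of the windows hold, and a match of letters is not a binding site. Capitals mark CACCTG and CAGGTG, and other forms of CANNTG are in lower case. The first sequence lies at chr17:87635729-87636028 (plus strand) and its motifs begin 187 and 19 bases before the start of Epcam. The second lies at chr2:167537945-167538244 (plus strand) and its motif begins 126 bases before the start of Snai1.
Epcam: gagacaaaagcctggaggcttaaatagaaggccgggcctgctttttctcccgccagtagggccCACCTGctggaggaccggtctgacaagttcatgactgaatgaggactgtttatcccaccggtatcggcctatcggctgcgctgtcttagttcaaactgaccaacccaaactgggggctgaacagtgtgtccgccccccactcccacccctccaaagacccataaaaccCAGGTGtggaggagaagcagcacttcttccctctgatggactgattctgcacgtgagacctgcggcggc
Snai1: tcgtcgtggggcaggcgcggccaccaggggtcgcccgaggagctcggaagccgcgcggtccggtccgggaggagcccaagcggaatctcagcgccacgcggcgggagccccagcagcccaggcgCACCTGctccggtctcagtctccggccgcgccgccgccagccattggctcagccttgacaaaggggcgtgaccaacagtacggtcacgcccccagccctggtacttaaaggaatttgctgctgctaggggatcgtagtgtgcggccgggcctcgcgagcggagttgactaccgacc

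The miR-200 family represses Zeb1 and Zeb2 and is itself repressed by the Zeb proteins. Its mature RNAs, taken from RefSeq, fall into 2 seed groups, with the seed (bases 2 to 8) in capitals. The family member miR-429, which shares the seed of miR-200b, is not printed, and its gene could not be followed on the array.
mmu-miR-200b-3p: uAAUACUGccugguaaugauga
mmu-miR-200c-3p: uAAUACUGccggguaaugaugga
mmu-miR-200a-3p: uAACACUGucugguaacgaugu
mmu-miR-141-3p: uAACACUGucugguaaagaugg

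Of the 10 members, limma called 0 at an adjusted p of 0.05, where 1.47% of the 28944 probe sets tested were called. An unadjusted p under 0.05 was found for 2 (Twist2 and Epcam), both higher, against 6.38% of all probe sets higher and 5.87% lower. By the same limma fit with other settings, 1 member was called in each of 3 of 15 alternatives: Twist2 with array weights or without the dimmest probe sets, and Vim without wild-type replicate 1. All 10 changes were positive, against 51.4% of all probe sets, with a median log2 change of 0.16 against 0.01 over all probe sets. In Twist2, Cdh1 and Epcam the 3 transgenic values lay above the 3 wild-type values, a pattern that 10% of all probe sets showed. The epithelial adhesion genes and the mesenchymal genes had changes of the same sign. Without single arrays 9 or 10 of the 10 changes were positive, and over the alternatives the median of the members ran between 0.12 and 0.20. All changes are differences of log2(intensity + 16), AR3 transgenic minus wild-type.

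**Figure D1:**
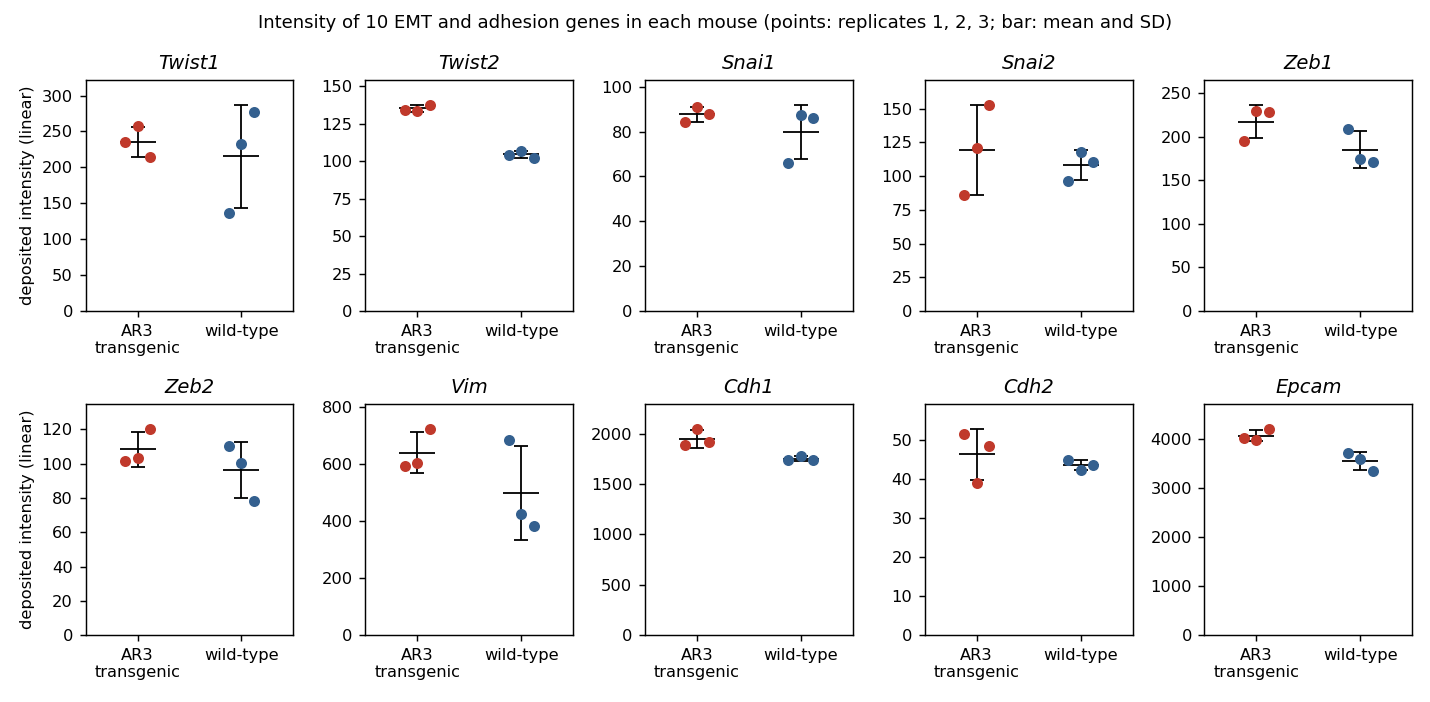
Deposited intensity (linear, vertical axis from 0) of the 10 genes in each of the 3 AR3 transgenic and 3 wild-type mice, with the mean and SD as bars. Twist2, Cdh1 and Epcam have groups that do not overlap, and wild-type replicate 1 is high for Vim and low for Twist1 and Snai1.

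Wild-type mice differed from each other. Median intensity lay between 94.5 and 110.8 on the 6 arrays, and the first principal component (45.1% of the variance) separated the genotypes. On the second (25.8%), wild-type replicate 1 lay at 30.8, wild-type replicate 3 at -22.3 and the other 4 arrays between -5.42 and 3.19. The label of prostate was met by luminal markers: the secretory genes Pbsn and Tgm4 and the keratins Krt8 and Krt18 were at 2055 or more on every array, far above the background scale. That scale is the 95th percentile of 1035 olfactory receptor probe sets, which ran from 66.9 to 91.9 over the arrays. The 6 seminal vesicle markers summed to 2611, 1546 and 8883 in transgenic replicates 1, 2 and 3, against 4734, 638.5 and 784.8 in wild-type replicates 1, 2 and 3, and thus differed widely between mice of 1 genotype.

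Among the transcription factors, Twist2 had the clearest separation. Twist2, a basic helix-loop-helix factor of mesenchymal cells, had intensities of 133.9, 133.7 and 137.7 in transgenic prostates, against 104.05, 107.0 and 102.3 in wild-type prostates. The gap between the genotypes was several times the range within either, with means of 135.1 ± 2.26 in transgenic and 104.4 ± 2.35 in wild-type prostates (SD, n = 3 each). The log2 change was 0.33 ± 0.07 (SE), a 1.25-fold difference, with a 95% interval of 0.17 to 0.49 and a limma adjusted p of 0.083. The adjusted p was 0.030 with array weights and 0.029 without the dimmest 40% of probe sets, and it ran up to 0.35 without transgenic replicate 3. The log2 change stayed between 0.24 and 0.37 over 15 alternatives. Some of these, such as the filter of dim probe sets, cannot move the estimate.

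Twist1, the closest relative of Twist2, had 235.4, 257.1 and 215.0 in transgenic prostates, against 137.2, 232.4 and 277.8 in wild-type prostates. The transgenic values lay inside the wild-type range, which was set by a low replicate 1 and a high replicate 3. The log2 change was 0.17 ± 0.22 (limma adjusted p = 0.82, 95% interval -0.34 to 0.68), and it turned to -0.10 without wild-type replicate 1 and was 0.37 without wild-type replicate 3.

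Neither Snail gene was called in the main setting or in any alternative. Snai1, a zinc finger repressor of Cdh1, had 84.4, 90.7 and 87.8 in transgenic prostates, against 65.8, 87.6 and 86.2 in wild-type prostates. Only wild-type replicate 1 stood below the others, and the log2 change was 0.12 ± 0.11 (limma adjusted p = 0.71), against 0.01 without that array and up to 0.18 without wild-type replicate 2. Snai2, which encodes Slug, had 85.9, 120.7 and 152.5 in transgenic prostates, against 96.2, 117.7 and 110.4 in wild-type prostates. Its transgenic values spread on both sides of the wild-type range. The log2 change was 0.10 ± 0.18 (limma adjusted p = 0.87, 95% interval -0.31 to 0.51), and it turned to -0.07 without transgenic replicate 3. It was 0.03 without wild-type replicate 1 and 0.29 without transgenic replicate 1.

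The Zeb genes encode zinc finger homeobox repressors. Zeb1 had 195.0, 229.5 and 227.9 in transgenic prostates, against 209.2, 174.05 and 171.5 in wild-type prostates. The groups overlapped through transgenic replicate 1 and wild-type replicate 1, and the log2 change was 0.22 ± 0.10 (limma adjusted p = 0.47, 95% interval -0.03 to 0.46). Without wild-type replicate 1 it was 0.30, with an adjusted p of 0.19. Zeb2 had 101.2, 103.2 and 120.2 in transgenic prostates, against 109.9, 100.2 and 78.1 in wild-type prostates. Here too wild-type replicate 1 lay within the transgenic range, and the log2 change was 0.16 ± 0.12 (limma adjusted p = 0.68), or 0.24 with an adjusted p of 0.36 without that array. The change was 0.03 without wild-type replicate 3 (adjusted p of 0.91 in the same limma test) and 0.09 without transgenic replicate 3.

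Vim, which encodes the intermediate filament of mesenchymal cells, had 593.3, 604.6 and 723.1 in transgenic prostates, against 685.8, 426.3 and 381.5 in wild-type prostates. Wild-type replicate 1 lay above 2 of the 3 transgenic mice, while the other 2 wild-type mice lay below all of them. The means were 640.3 ± 71.9 in transgenic and 497.9 ± 164.3 in wild-type prostates (SD, n = 3 each), with a log2 change of 0.39 ± 0.20 (limma adjusted p = 0.50, 95% interval -0.08 to 0.87), the largest point estimate of the 10 members. Without wild-type replicate 1 the log2 change was 0.64 (limma adjusted p = 0.047), and without wild-type replicate 3 it was 0.23 (adjusted p = 0.65).

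**Figure D2:**
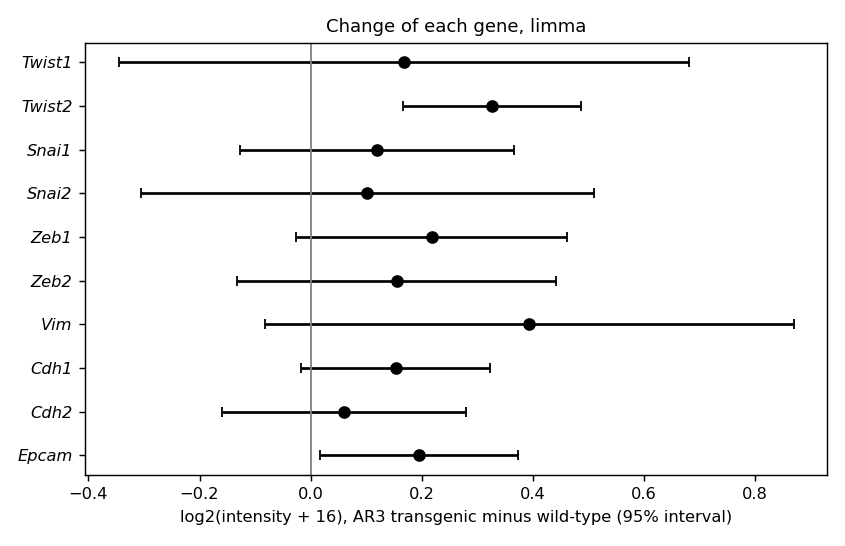
Log2 change of each gene, AR3 transgenic minus wild-type, with its 95% interval from limma (not adjusted for the number of probe sets tested). The intervals of Twist2 and Epcam lie above 0, and those of Vim and Twist1 are the widest.

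Beside Vim, markers of other cell types that express it were read on the same arrays. The 10 fibroblast markers summed to 5557, 5836 and 7614 in transgenic replicates 1, 2 and 3, against 6046, 4558 and 4248 in wild-type replicates 1, 2 and 3. That is the same order of the 6 arrays as for Vim. Dcn and Gsn, the brightest of the 10, weigh most in this sum, and single markers differed in their order. Dcn had 2918 in transgenic replicate 2 and 2856 in wild-type replicate 1, and Clec3b was highest in wild-type replicate 3. The seminal vesicle markers also summed highest in transgenic replicate 3 and wild-type replicate 1 (8883 and 4734). Their sum was lowest in wild-type replicates 2 and 3 (638.5 and 784.8). The single markers did not move together. Svs3a was highest in wild-type replicates 2 and 3 (477.1 and 609.8) and was called lower, with a log2 change of -1.43 ± 0.22 (limma adjusted p = 0.019). Whether tissue carried over at dissection or prostate stroma underlies the levels of Vim was not tested. All 10 fibroblast markers had positive changes and 0 were called (limma), with 5 at an unadjusted p under 0.05 and a median log2 change of 0.39. Over all probe sets, 51.4% had a positive change and 1.47% were called. Such a p was found with a positive change in 6.38% and with a negative change in 5.87% of them. The fibroblast receptor Pdgfra had a log2 change of 0.69 ± 0.24 and the matrix protein gene Dpt of 0.84 ± 0.47 (limma adjusted p of 0.30 and 0.52). Dpt had 215.0, 156.5 and 299.9 in transgenic prostates, against 275.8, 74.7 and 67.0 in wild-type prostates, so that wild-type replicate 1 lay within the transgenic range. In a fit without that array, added after the data were seen, Dpt was called at a log2 change of 1.42 (limma adjusted p = 0.036), and it was 0.52 without wild-type replicate 3. The median of the 10 markers was 0.60 without wild-type replicate 1, 0.26 without wild-type replicate 3 and 0.21 without transgenic replicate 3, with 1, 0 and 0 called.

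The 8 myeloid markers summed to between 807.4 and 967.3 in transgenic prostates, against 550.5 to 740.3 in wild-type prostates. Of the 8, 0 were called and 4 had an unadjusted p under 0.05 (limma) with a positive change, against 6.38% of all probe sets. The 8 endothelial markers summed to between 1043 and 1081 in transgenic prostates, against 802.4 to 973.9 in wild-type prostates. Of these 8, 1 was called, where 1.47% of all probe sets were called. The called marker was Cdh5, whose means of 184.7 in transgenic and 89.7 in wild-type prostates weigh heavily in the difference of the sums. The 9 smooth muscle markers summed to between 13490 and 17982 in transgenic prostates, against 14243 to 17261 in wild-type prostates, and 0 were called, with 0 at an unadjusted p under 0.05 (limma). No marker of these 4 lists was at 0 on any array, and the myeloid markers Adgre1 and Itgam had means below 66.9 in both genotypes. The part of these cells in the levels of Vim, Zeb1, Zeb2 and Twist2 was not tested.

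**Figure D3:**
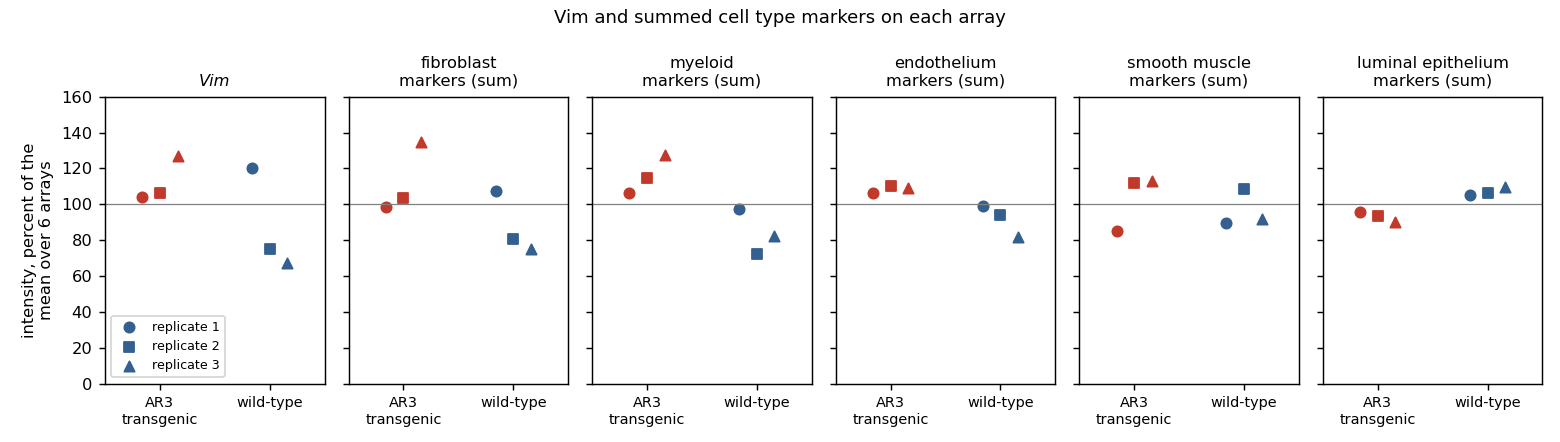
Intensity of Vim and summed intensities of marker lists on each array, as a percentage of the mean over the 6 arrays. Vim and the summed fibroblast markers share wild-type replicate 1 and transgenic replicate 3 as their highest arrays. The summed luminal intensity lies lower in the 3 transgenic than in the 3 wild-type prostates. Sbp, Msmb and Pbsn have the largest differences in mean among its genes, while Tgm4, the brightest, does not share that direction.

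The adhesion genes of epithelium were bright in both genotypes. Cdh1 had 1884, 2046 and 1912 in transgenic prostates, against 1735, 1778 and 1735 in wild-type prostates. The groups did not overlap, with means of 1947 ± 86.7 in transgenic and 1749 ± 25.3 in wild-type prostates (SD, n = 3 each). The log2 change was 0.15 ± 0.07, a 1.11-fold difference (limma adjusted p = 0.46). Its 95% interval of -0.02 to 0.32 holds no decrease beyond 0.02 on the log2 scale. The log2 change stayed between 0.11 and 0.18 over 15 alternatives, some of which cannot move it.

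Epcam had 4009, 3988 and 4205 in transgenic prostates, against 3723, 3588 and 3353 in wild-type prostates. All 3 transgenic values lay above the wild-type range, with a log2 change of 0.19 ± 0.08 (limma adjusted p = 0.36, 95% interval 0.02 to 0.37). That adjusted p was 0.066 when the variances were fitted robustly with a trend. The 10 measured luminal markers summed to between 48355 and 51302 in transgenic prostates, against 56611 to 58841 in wild-type prostates. Among the 10, the largest differences in mean intensity were those of the bright secretory genes Sbp (means of 4107 in transgenic and 7752 in wild-type prostates), Msmb (7840 and 11166) and Pbsn (8078 and 9343). Of the 10 markers, 4 had positive changes and the median log2 change was -0.03. An unadjusted p under 0.05 (limma) was found for 3, all with negative changes, against 5.87% of all probe sets. In 4 of the 10 the 3 transgenic values lay below all wild-type values, against 8.78% of all probe sets, and in 0 above. Of the 10, 1 was called lower, where 1.47% of all probe sets were called in either direction. It was Sbp, which encodes a secreted spermine-binding protein (log2 change of -0.91 ± 0.09, limma adjusted p of 0.0017). The keratins Krt8 (0.14 ± 0.08) and Krt18 (-0.02 ± 0.08) had adjusted p of 0.53 and 0.96 in the same fit.

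Cdh2 could not be told from background. It had 51.5, 38.9 and 48.4 in transgenic prostates, against 44.8, 42.2 and 43.6 in wild-type prostates. All lay below 66.9, the lower end of the background scale over the arrays. The transgenic values fell on both sides of the wild-type ones, and the log2 change was 0.06 ± 0.09 (limma adjusted p = 0.85), or -0.0011 without transgenic replicate 1. The added constant holds down the change of a gene at this level. The other 9 members had means above 66.9 in both genotypes, and that of Snai1 lay within the range of the scale (87.6 ± 3.18 in transgenic and 79.9 ± 12.2 in wild-type prostates).

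Other genes of the pathway were read from lists. Of 36 measured mesenchymal genes linked to the transition, 1 was called higher and 0 lower, where 1.47% of all probe sets were called. Positive changes were found in 30, against 51.4% of all probe sets, and the median log2 change was 0.16 against 0.01. In 7 of the 36 the 3 transgenic values lay above all wild-type values and in 0 below, against 10% and 8.78% of all probe sets. The called gene was Spock1, which encodes a secreted proteoglycan of the testican family. Spock1 had 169.2, 162.7 and 178.7 in transgenic prostates, against 99.3, 108.4 and 98.0 in wild-type prostates. Its groups lay far apart, with a log2 change of 0.66 ± 0.08 (limma adjusted p = 0.0054), and without single arrays it remained called. The membrane-bound matrix metalloproteinase gene Mmp14 had a log2 change of 0.55 ± 0.10 (limma adjusted p = 0.0502), which just missed the threshold, and was called in 5 of 14 alternatives. The receptor kinase gene Axl (0.36 ± 0.12) and the TGF-β receptor gene Tgfbr2 (0.21 ± 0.07) had adjusted p of 0.27 and 0.29 (limma). An unadjusted p under 0.05 was found for 8 genes of this list, each with a positive change, where 6.38% of all probe sets had such a p with a positive and 5.87% with a negative change. Of these 8, Pdgfra is also a fibroblast marker, and Acta2 and Tagln of this list are also smooth muscle markers, so the lists share genes.

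Of 43 measured genes of epithelial junctions and epithelial identity, limma called 0, where 1.47% of all probe sets were called. An unadjusted p under 0.05 was found for 6, 5 with positive and 1 with negative changes, against 6.38% and 5.87% of all probe sets. In 10 of the 43 the 3 transgenic values lay above all wild-type values and in 1 below, against 10% and 8.78% of all probe sets. The tight junction gene Cldn3 had 1110, 1180 and 1172 in transgenic prostates, against 981.2, 922.7 and 922.4 in wild-type prostates. Its groups did not overlap, and the log2 change was 0.29 ± 0.07 (limma adjusted p = 0.16), against 0.019 when the variances were fitted robustly with a trend. The transcription factor genes Grhl3 (0.25 ± 0.09) and Ovol2 (0.20 ± 0.07), both of which act in epithelial cells, and Rab25 (0.24 ± 0.09), a small GTPase gene of epithelial transport, had adjusted p of 0.30, 0.35 and 0.37 (limma).

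**Figure D4:**
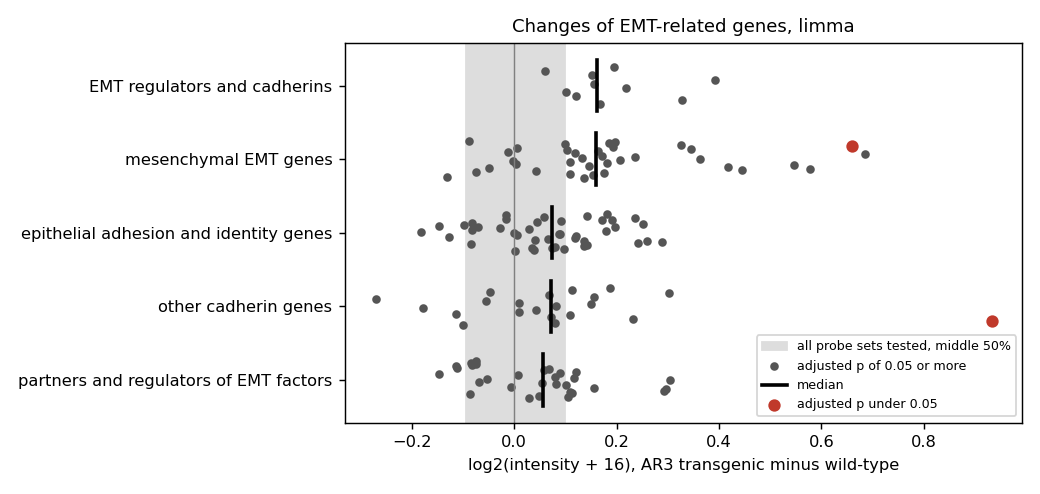
Log2 change, AR3 transgenic minus wild-type, of each gene of the 10 members and of 4 lists of other genes, with the median as a bar and the middle 50% of all probe sets shaded (-0.09 to 0.10). The called genes, Spock1 and Cdh5, are the large points, and no gene of the 10 members is called.

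Among 21 other cadherin genes, 1 was called higher and 0 lower, where 1.47% of all probe sets were called. The called gene was Cdh5, the cadherin of blood vessel endothelium. Cdh5 had 168.5, 198.6 and 186.9 in transgenic prostates, against 107.4, 86.3 and 75.5 in wild-type prostates. The lowest transgenic value lay well above the highest wild-type value, with a log2 change of 0.93 ± 0.12 (limma adjusted p = 0.0096). The wild-type mean of Cdh5, 89.7, lay within the range of the background scale (66.9 to 91.9). Its call was lost without transgenic replicate 2, transgenic replicate 3 or wild-type replicate 2, with adjusted p of 0.063, 0.065 and 0.061. The 7 other endothelial markers were not called, and their log2 changes lay between -0.04 ± 0.09 for Tie1 and 0.32 ± 0.13 for Tek (limma adjusted p of 0.90 and 0.38). Cdh18 (-0.27 ± 0.11), Cdh26 (0.19 ± 0.10) and Cdh6 (0.23 ± 0.14) had the next smallest p, with adjusted p of 0.38, 0.51 and 0.57. Of the 21 genes, 11 had a mean above 66.9 in at least 1 genotype.

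Of 30 measured partners and regulators of the EMT factors, limma called 0, and 2 had an unadjusted p under 0.05, both with positive changes. Over all probe sets, 1.47% were called, and 6.38% had such a p with a positive and 5.87% with a negative change. In 6 of the 30 the 3 transgenic values lay above all wild-type values and in 0 below, against 10% and 8.78% of all probe sets. The 2 genes with an unadjusted p under 0.05 were Hdac1 and Id1. Hdac1 encodes a histone deacetylase that Snail recruits as a corepressor (0.30 ± 0.08, limma adjusted p of 0.19). Id1 encodes an inhibitor of helix-loop-helix factors (0.29 ± 0.09, limma adjusted p of 0.22). Id2 (0.30 ± 0.14) and the Polycomb gene Suz12 (-0.15 ± 0.08) had adjusted p of 0.44 and 0.53 (limma). The miR-200 genes shown above as mature sequences were read by 1 probe set each: Mir200a had 96.9, 85.7 and 104.2 in transgenic prostates, against 110.6, 99.9 and 103.1 in wild-type prostates, a log2 change of -0.11 ± 0.09 (limma adjusted p = 0.67). Mir200b, Mir200c and Mir141 had log2 changes of -0.08 ± 0.20, -0.08 ± 0.18 and -0.08 ± 0.10. Mir141 had means below 66.9 in both genotypes (42.2 in transgenic and 45.9 in wild-type prostates), and those of Mir200b (70.2 and 75.9) lay within the range of the background scale. Labelling of total RNA for whole transcripts does not separate mature miRNAs from their precursors, so these values do not give the mature forms.

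Over the 6 arrays and 13897 genes with a mean over all arrays above 66.9, the patterns most like Twist2 were those of Add3 (Pearson r 0.999), Spock1 (0.998), Wfdc6a (0.998) and Mug2 (0.998). The wild-type means of Wfdc6a and Mug2 were 27.0 and 35.4, below the background scale, so both passed through their transgenic values alone. For Vim they were Kyat1 (0.997), Wdr13 (0.997), Stub1 (0.997) and Slc39a8 (0.996), and for Cdh1 they were Vars2 (0.999), Src (0.993), Ghr (0.991) and Resf1 (0.987). An r above 0.95 was found for 315 genes with Twist2 (2.27%), 157 with Vim (1.13%) and 56 with Cdh1 (0.403%). Among the members themselves, Vim lay closest to Zeb1 (0.895) and Zeb2 (0.879), and Twist2 to Epcam (0.919) and Cdh1 (0.887). These values describe 6 arrays, of which 3 share each genotype.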

How the data were processed

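Total RNA of dissected prostates was labelled with a whole-transcript kit for Affymetrix arrays, per the labels' protocols. The deposited values are intensities on a linear scale, 1 per probe set and array. How they were summarised and normalized, and with which software, is not given in the sources used here, and they were not normalized again. Of 35512 probe sets, 6568 with control identifiers (below 10344614, from knowledge of the platform) were left out. The platform annotation gave 1 symbol to 21789 of the other 28944, several to 1621 and none to 5534. A gene was followed through its probe set with the highest mean. The test was limma 3.58.1 (lmFit and eBayes, R 4.3.3) on log2(intensity + 16), two-sided, 3 against 3 arrays with no covariate. P-values were adjusted over the 28944 probe sets by the Benjamini-Hochberg method, with a threshold of 0.05. The fit was tested on simulated data. The number of arrays limits the precision. An exact permutation test of 3 against 3 has a smallest two-sided p of 0.1, so none was run.

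The members and lists were chosen with earlier results of these data known. Genes named were all members, of each list the genes called and up to 4 with the smallest p, and the 4 genes most like Twist2, Vim and Cdh1. Cell type markers and miR-200 genes named beside them were singled out after their values were seen. Same-numbered mice did not deviate together (r of -0.04, 0.05 and -0.16), so the numbers were not taken as pairs.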

Additional observations from a re-analysis of the deposited data

How the results depend on the processing

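The alternatives were added constants of 1 and 64, quantile normalization, median centring, array weights, robust variances with a trend, a filter that removed the dimmest 40% of probe sets, the mouse number as a replicate block, the mean of all probe sets of a gene (members only) and leaving out each array. The trend, the filter, the replicate block and, with 1 probe set per member, the mean of probe sets cannot move a member's log2 change. Cdh1, Epcam, Snai1, Zeb1 and Zeb2 kept their direction and were not called in any of 15. Without single arrays the log2 change ran between 0.23 and 0.64 for Vim, between 0.03 and 0.24 for Zeb2, between -0.10 (without wild-type replicate 1) and 0.37 for Twist1, between -0.069 (without transgenic replicate 3) and 0.29 for Snai2, and between -0.0011 (without transgenic replicate 1) and 0.15 for Cdh2. The count of called members moved to 1 with array weights and with the filter (Twist2 in both), and lay between 0 and 1 without single arrays. Called mesenchymal genes numbered 3 with array weights, 2 with a trend, a constant of 64, quantile normalization or the filter, and 0 with the replicate block (Spock1 adjusted p = 0.055 by limma). Called epithelial genes numbered 1 with array weights or a trend, and called regulators 2 with array weights and 1 with a trend. Called cadherin genes numbered 0 with the replicate block (Cdh5 adjusted p = 0.057 by limma) and between 0 and 1 without single arrays. Called probe sets numbered 425, against 1202 with array weights, 678 with a trend, 250 with the replicate block and 234 to 519 without single arrays. The causes were not tested, other than that fewer probe sets or arrays entered some fits. No detection calls were used, so genes near the background scale, above all Cdh2, can be at background.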
